A study of Mus musculus with 6 samples.

Results

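The neurotrophin and GDNF family genes Bdnf, Ntf3, Ntrk2, Ntrk3, Gdnf, Gfra1, Gfra2, Ret and Cntf, 9 in all, were taken by symbol from a table of 33274 gene rows, and each had a single row. Their positions are given in GRCm38 from the GENCODE M21 annotation, an older build than the GRCm39 of the counts. Neurotrophins and the GDNF family are small secreted proteins that neurons and glia use to support survival, axon growth and synaptic strength. Each acts through a receptor complex. BDNF binds the receptor tyrosine kinase TrkB, encoded by Ntrk2, and neurotrophin 3, encoded by Ntf3, binds TrkC, encoded by Ntrk3. GDNF and its relatives bind a GFRα co-receptor anchored to the membrane, which then engages the tyrosine kinase Ret. CNTF, a cytokine of the interleukin-6 family, signals through its own receptor chain with the shared chains Lifr and Il6st. In cortex, BDNF is made mainly by excitatory neurons and its transcription follows neuronal activity.

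The genes were measured in the cerebral cortex of 6 wild type female ICR mice aged 6 weeks, an outbred stock. In the methylphenidate lineage (n = 3), the grandsire had received 15 mg/kg of methylphenidate, a blocker of dopamine and noradrenaline uptake, under the skin daily for 21 days. In the saline lineage (n = 3), the grandsire had received 10 mL/kg of saline in the same way. Dosed males and then their sons were bred with undosed females, and the F2 daughters of those sons were sampled. The comparison asks whether cortical expression of these ligands and receptors differed with the grandsire's treatment. The sources used here do not say which F2 animals shared a litter or a grandsire, so each p-value rests on the spread among the samples alone. F1 sires were chosen at random, a single male per litter.

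Libraries held 23896752 to 28120640 counts, and a count of 0 allows up to 3 counts, or 0.105 to 0.124 CPM, the TMM-scaled count after correction for library size, for counting error only. The labelled tissue was checked by 13 markers of cortical excitatory neurons, which summed to 6549 to 6931 CPM in the methylphenidate lineage and 6693 to 6954 CPM in the saline lineage, with none at 0. Markers of neighbouring regions were present too. The sum of 15 striatal markers was 950.1, 615 and 1225 CPM in methylphenidate replicates 1 to 3 and 631, 519 and 498 CPM in saline replicates 1 to 3. The sum of 15 basal forebrain and hypothalamic markers was 31.8, 24.4 and 51.5 CPM in methylphenidate replicates 1 to 3 and 20.8, 19.4 and 19.8 CPM in saline replicates 1 to 3. Methylphenidate replicate 3 was highest in both sums. In the second sum, 1 gene gave 19.4 of the 51.5 CPM in that library, and lay at 1.49 to 2.58 CPM in the others. Of the 14 striatal markers tested, 13 had log2 fold changes above 0 and none passed the threshold. In edgeR 11 of them had an unadjusted p under 0.05, against 7.51% of all genes tested. Groups did not overlap for 7, all higher in the methylphenidate lineage, against 13.5% of all genes tested. The marker lists were chosen with earlier results of these data known. Isl1 was at 0 in saline replicate 3. Sums of 10 hippocampal markers were 245 to 271 CPM in the methylphenidate lineage and 191 to 202 CPM in the saline lineage, and the groups did not overlap. Sums of 10 oligodendrocyte precursor markers were 468 to 507 CPM in the methylphenidate lineage and 377 to 440.4 CPM in the saline lineage, again without overlap. Gene by gene, groups did not overlap for 5 of the 10 hippocampal markers, 4 higher and 1 lower. The same held for 3 of the 10 precursor markers, all higher, against 13.5% of all genes tested. Sums of 8 choroid plexus markers lay at 25.0 to 515 CPM in the methylphenidate lineage and 45.6 to 682 CPM in the saline lineage. The part of these tissues and cells in the results was not tested.

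No gene of the 9 was called different between lineages. Of the 8 that could be tested, 0 reached an adjusted p under 0.05 with edgeR's quasi-likelihood test, where 0.0273% of all 18327 genes tested did, 0.0218% higher and 0.00546% lower. DESeq2 and limma-voom also called 0 of the 8. At an unadjusted p under 0.05 there was 1 of the 8, Gfra2, where 7.51% of all genes tested lay under that value. The log2 fold changes, methylphenidate minus saline, were above 0 for 5 and below 0 for 3, with a median of 0.07 against 0.00 over all genes tested. Gfra2, the co-receptor preferred by neurturin, was lower in every methylphenidate library. The receptor genes Ntrk2 and Ntrk3 lay within a narrow band in all 6 libraries, and the ligand genes Ntf3, Gdnf and Cntf lay close to the detection limit.

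**Figure D1:**
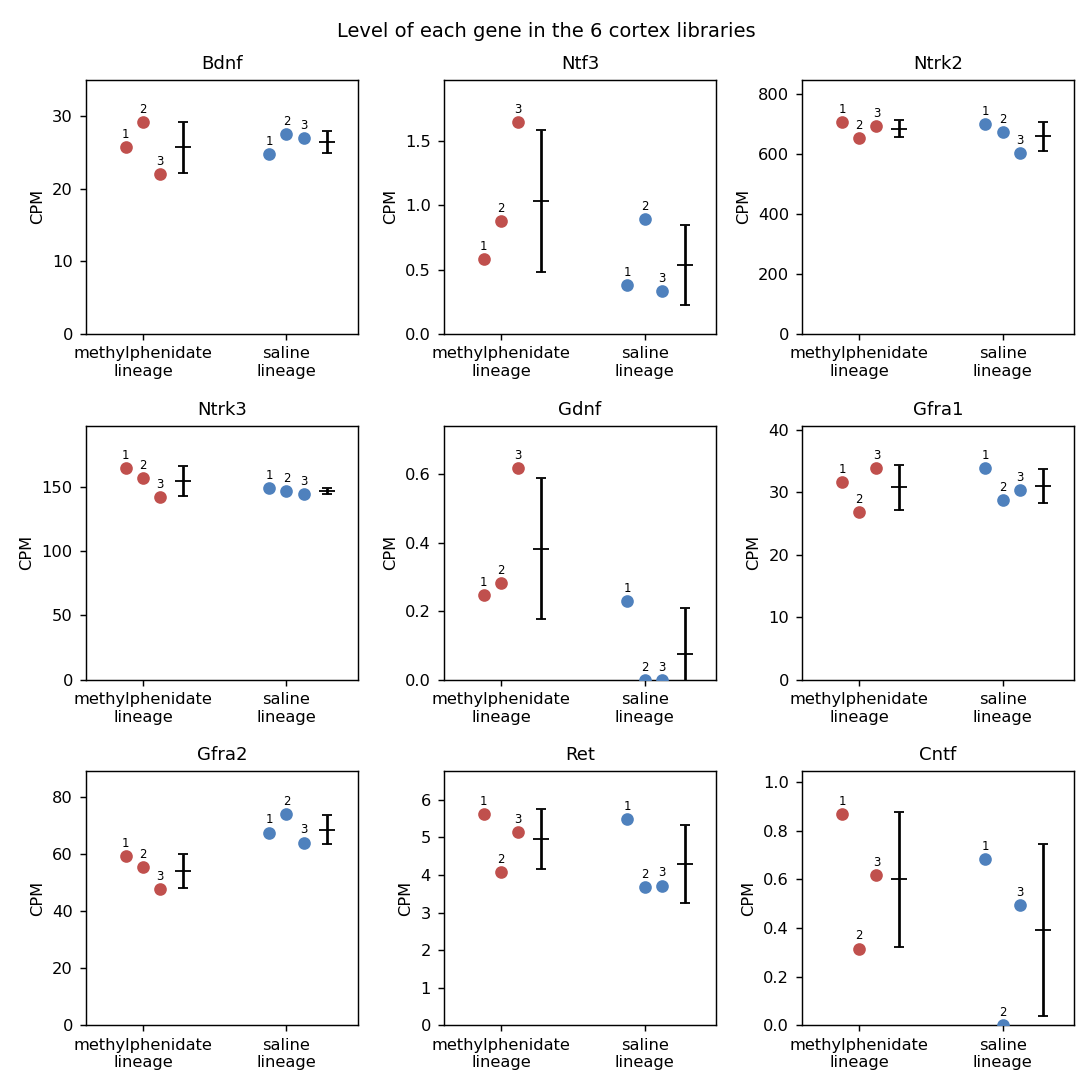
CPM (vertical axis, from 0) of each of the 9 genes in the 6 libraries, with methylphenidate libraries on the left and saline libraries on the right of each panel. Numbers are replicates and the black bar is the mean with its SD (n = 3). Gfra2 lies at 47.8 to 59.3 CPM in the methylphenidate lineage, below all saline libraries, while most other panels overlap.

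Bdnf (ENSMUSG00000048482, chr2:109674700-109727007, plus strand), the most studied neurotrophin gene of cortex, lay at 25.8, 29.2 and 22.1 CPM in methylphenidate replicates 1 to 3 and at 24.8, 27.6 and 27.0 CPM in saline replicates 1 to 3. The groups overlapped, and methylphenidate replicates 2 and 3 were the highest and the lowest of all 6 libraries. Bdnf had a log2 fold change, methylphenidate minus saline, of -0.04 (SE 0.11, 95% interval -0.30 to 0.21, adjusted p = 0.961 in edgeR). The mouse gene lies on chromosome 2 and starts transcription at several sites that all lead to the same coding exon, and RefSeq gives 7 promoter windows for it. Counts per gene add all these transcripts together, so use of one promoter in place of another was not measurable here. An antisense gene, Gm45346, overlaps exons of Bdnf and had at most 6 counts in any library.

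One of these windows is shown because it holds a well studied activity-responsive element of the gene, the cAMP-response element of the promoter for exon IV. It covers the 250 bases before the start site at chr2:109692186-109692435 on the plus strand (RefSeq, GRCm38.p6), and capitals mark the element TCACGTCA, which begins 38 bases before the start.
Bdnf promoter window: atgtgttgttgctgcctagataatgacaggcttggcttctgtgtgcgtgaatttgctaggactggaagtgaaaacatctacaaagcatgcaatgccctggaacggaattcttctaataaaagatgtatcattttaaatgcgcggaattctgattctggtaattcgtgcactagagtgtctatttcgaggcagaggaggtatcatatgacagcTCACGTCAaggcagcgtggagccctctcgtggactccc
Searched on both strands, TCACGTCA was in 0.35% of 32851 RefSeq promoter windows of the same length, and the full palindrome TGACGTCA in 1.55%. Of the 14 windows that RefSeq gives for 6 of the 9 genes, this was the only one with either motif. A match is a description of the letters and not evidence of a bound factor. The count table uses GRCm39, and the sequence was used for its letters alone.

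Ntf3 (ENSMUSG00000049107, chr6:126101412-126166910, minus strand), which encodes neurotrophin 3, had 14, 25 and 40 counts in methylphenidate replicates 1 to 3 and 10, 23 and 8 counts in saline replicates 1 to 3. As levels these were 0.580, 0.878 and 1.65 CPM in the methylphenidate lineage and 0.381, 0.898 and 0.331 CPM in the saline lineage. The groups overlapped, since saline replicate 2 lay above methylphenidate replicates 1 and 2. The log2 fold change was 0.94 (SE 0.55, 95% interval -0.30 to 2.18, adjusted p = 0.758 in edgeR), with an interval that reaches from slightly below 0 to a several-fold increase. With 1 library left out it ran from 0.44 without methylphenidate replicate 3 to 1.52 without saline replicate 2 (unadjusted p = 0.0367, adjusted p = 0.717 in edgeR). Methylphenidate replicate 3 had the highest sum of striatal markers and the highest sum of basal forebrain and hypothalamic markers.

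Ntrk2 (ENSMUSG00000055254, chr13:58806569-59133970, plus strand), which encodes TrkB, had the most counts of the 9 genes, with 705, 651 and 692 CPM in methylphenidate replicates 1 to 3 and 697, 673 and 602 CPM in saline replicates 1 to 3. The groups overlapped, with saline replicate 3 lowest. Its log2 fold change was 0.05 (SE 0.07, 95% interval -0.11 to 0.22, adjusted p = 0.905 in edgeR). The gene makes a full-length kinase and a truncated receptor that is abundant in astrocytes, and counts per gene do not separate these forms.

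Ntrk3 (ENSMUSG00000059146, chr7:78175959-78738012, minus strand), which encodes TrkC, lay at 165, 157 and 142 CPM in methylphenidate replicates 1 to 3 and at 149, 147 and 145 CPM in saline replicates 1 to 3. Methylphenidate replicate 3 was the lowest of the 6 and the other methylphenidate libraries the highest. An antisense gene, Gm9885, lies within introns of Ntrk3 and had 69 to 136 counts per library. The log2 fold change was 0.08 (SE 0.07, 95% interval -0.08 to 0.23, adjusted p = 0.866 in edgeR). Over all 6 libraries the CPM of Ntrk2 and Ntrk3 had coefficients of variation of 5.76% and 5.75%, the smallest among the 8 tested members.

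Gdnf (ENSMUSG00000022144, chr15:7810846-7837575, plus strand), the founding ligand of its family, was at the detection limit, with 6, 8 and 15 counts in methylphenidate replicates 1 to 3 and 6, 0 and 0 counts in saline replicates 1 to 3. The 2 saline libraries at 0 allow up to 0.117 and 0.124 CPM. In CPM the groups did not overlap, with 0.248, 0.281 and 0.618 in the methylphenidate lineage and 0.228, 0 and 0 in the saline lineage, but methylphenidate replicate 1 and saline replicate 1 held the same number of counts. Among the genes tested, which do not include Gdnf, 13.5% had groups that did not overlap. Gdnf lay below the filter on low counts and was not tested, and without that filter edgeR gave an adjusted p of 0.739. Methylphenidate replicate 3, the highest library, also had the highest sum of striatal markers, a region where Gdnf is made in mice. Methylphenidate replicate 2, whose sum of 615 CPM lay within the range of 498 to 631 CPM in the saline lineage, had 8 Gdnf counts. The part of striatal tissue in this pattern was not tested.

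Gfra1 (ENSMUSG00000025089, chr19:58235604-58455909, minus strand), the co-receptor that GDNF prefers, lay at 31.6, 26.9 and 33.9 CPM in methylphenidate replicates 1 to 3 and at 33.9, 28.7 and 30.4 CPM in saline replicates 1 to 3. The groups overlapped throughout. The log2 fold change was -0.01 (SE 0.11, 95% interval -0.26 to 0.24, adjusted p = 0.992 in edgeR). An antisense gene, Gm16277, overlaps its exons in the GENCODE M21 annotation and was not analysed here.

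Gfra2 (ENSMUSG00000022103, chr14:70890120-70979838, plus strand) was the one tested member whose groups did not overlap, where 13.5% of all genes tested had groups that did not overlap, 6.97% higher and 6.51% lower. It lay at 59.3, 55.4 and 47.8 CPM in methylphenidate replicates 1 to 3 and at 67.6, 74.2 and 64.1 CPM in saline replicates 1 to 3. The means were 54.2 ± 5.87 CPM in the methylphenidate lineage and 68.7 ± 5.12 CPM in the saline lineage (SD, n = 3 each). The log2 fold change was -0.34 (SE 0.10, 95% interval -0.56 to -0.13, unadjusted p = 0.00543), and the difference did not pass over all genes tested (adjusted p = 0.410 in edgeR, DESeq2 adjusted p = 0.105). In bulk tissue, fewer cells of a type and less RNA per cell cannot be told apart.

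The Gfra2 difference kept its sign in all 16 alternatives tried, which left out each library in turn or changed the scaling, filter or tool, with log2 fold changes of -0.41 to -0.26 and adjusted p of 0.105 to 0.958. Methylphenidate replicate 3, the lowest library, had the highest sum of striatal markers, at 1225 CPM. With replicates 1 and 3 of the methylphenidate lineage left out, the log2 fold change was -0.31 (SE 0.12, adjusted p = 0.958 in edgeR), and the one methylphenidate library kept had a striatal sum within the saline range. Of the 13 cortical excitatory markers, 10 had log2 fold changes below 0, with a median of -0.15, and none passed the threshold. In edgeR 6 of them had an unadjusted p under 0.05, against 7.51% of all genes tested. Groups did not overlap for 5, with 1 higher and 4 lower, against 13.5% of all genes tested. The part of these markers in the Gfra2 difference was not tested.

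Ret (ENSMUSG00000030110, chr6:118151745-118197718, minus strand), the signalling kinase shared by the GDNF family, was low, at 5.63, 4.07 and 5.15 CPM in methylphenidate replicates 1 to 3 and 5.48, 3.67 and 3.72 CPM in saline replicates 1 to 3. Replicate 1 was highest in each lineage and the groups overlapped. The log2 fold change was 0.20 (SE 0.24, 95% interval -0.32 to 0.73, adjusted p = 0.889 in edgeR).

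Cntf (ENSMUSG00000079415, chr19:12763660-12765632, minus strand), a ligand made by astrocytes in the brain and by Schwann cells in peripheral nerve, had 21, 9 and 15 counts in methylphenidate replicates 1 to 3 and 18, 0 and 12 counts in saline replicates 1 to 3. The groups overlapped, and the log2 fold change was 0.59 (SE 0.86, 95% interval -1.33 to 2.52, adjusted p = 0.920 in edgeR). It was 0.01 without saline replicate 2, 1.27 without saline replicate 1 and 1.55 with limma-voom. GENCODE M21 places exons of Cntf over exons of Zfp91 on the same strand, which had 4375 to 5364 counts per library, so assignment of reads between the pair is uncertain. The 10 astrocyte markers summed to 5075 to 5901 CPM in the methylphenidate lineage and 5034 to 5729.7 CPM in the saline lineage.

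Cntf had the largest SD of log2 CPM among the tested members, 1.31 over the 6 libraries, a value that includes the count of 0 in saline replicate 2. On the CPM scale its coefficient of variation was 61.5%, beside 61.7% for Ntf3. The genes whose centred log2 CPM came nearest to it over the 6 libraries were Hba-a2, Ptp4a1 and Dynlt1b, with root mean square differences of 0.26, 0.31 and 0.33. All 3 were lowest in saline replicate 2, the library without Cntf counts, at 2.93, 1.09 and 1.72 CPM. That follows from how they were picked, and is no separate evidence on the level of Cntf there. Hba-a2 and Dynlt1b belong to families of near-identical genes, whose counts are uncertain.

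Levels of different genes were compared per kilobase of annotated exon, averaged over the 6 libraries. Ntrk2 was highest at 34.7 CPM per kilobase, then came Gfra2 at 17.3, Gfra1 at 5.64, Ntrk3 at 5.00 and Bdnf at 4.19. Ret at 0.683, Cntf at 0.464, Ntf3 at 0.458 and Gdnf at 0.0624 CPM per kilobase lay far below. The ranges of Gfra1 and Ntrk3 overlapped, at 4.91 to 6.20 and 4.71 to 5.47 CPM per kilobase, as did those of Ret, Cntf and Ntf3. Bdnf reached 4.69 CPM per kilobase, barely under the lowest library of Ntrk3. The order depends on the length used. With the longest annotated transcript as length, Ntrk3 at 7.66 CPM per kilobase lay above Gfra1 at 6.66, and Ntf3 at 0.530 above Cntf at 0.464, while Ntrk2 stood at 76.6.

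**Figure D2:**
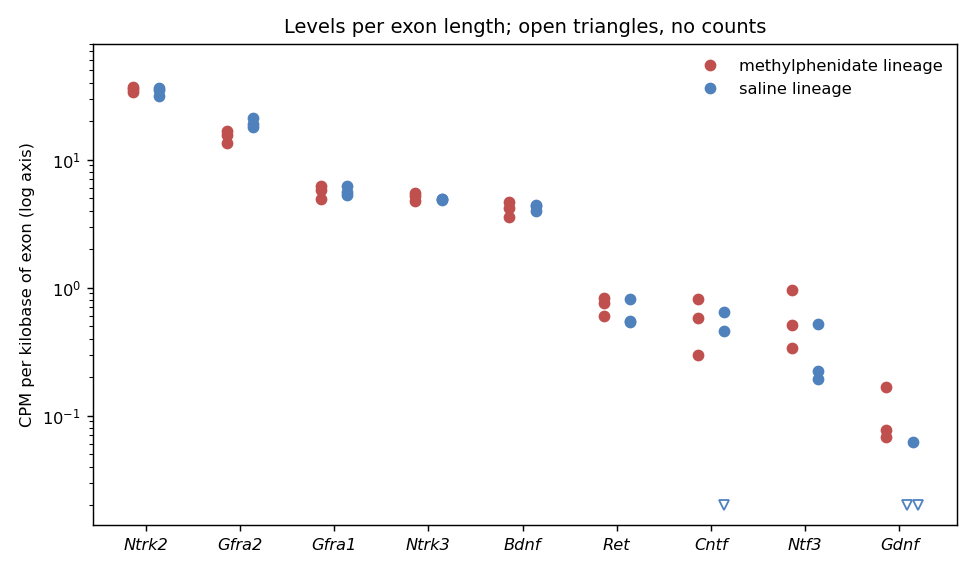
CPM per kilobase of annotated exon (vertical log axis) for the 9 genes in order of their mean, with 1 point per library, the methylphenidate lineage left of the saline lineage. Open triangles at the foot of the axis are libraries with no counts, which were saline libraries of Cntf and Gdnf. Bdnf lies below Ntrk2, Ntf3 below Ntrk3, and Gdnf below Gfra1, Gfra2 and Ret, with means from 34.7 for Ntrk2 to 0.0624 for Gdnf.

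Ratios of counts within a library do not depend on scaling between libraries, and were not tested. There were 3.66, 4.48 and 3.19 Bdnf counts for every 100 Ntrk2 counts in methylphenidate replicates 1 to 3 and 3.56, 4.10 and 4.49 in saline replicates 1 to 3. For every 100 Gfra2 counts there were 53.4, 48.5 and 71.0 Gfra1 counts in methylphenidate replicates 1 to 3 and 50.2, 38.7 and 47.3 in saline replicates 1 to 3. The means of this Gfra1 ratio were 57.6 ± 11.9 and 45.4 ± 5.95 (SD, n = 3 each) in the methylphenidate and saline lineages, and the groups overlapped. The difference of 12.2 was 5.52 without methylphenidate replicate 3 and 3.10 without methylphenidate replicates 1 and 3. Ret counts for every 100 Gfra2 counts averaged 9.21 ± 1.73 in the methylphenidate lineage and 6.29 ± 1.63 in the saline lineage, again with overlap. Ntf3 counts for every 100 Ntrk3 counts averaged 0.690 ± 0.420 in the methylphenidate lineage and 0.365 ± 0.213 in the saline lineage, with overlap. The difference of 0.325 in this ratio was 0.0897 without methylphenidate replicate 3 and 0.494 without methylphenidate replicate 1. Gdnf counts for every 100 Gfra1 counts were 0.785, 1.05 and 1.82 in the methylphenidate lineage and 0.673, 0 and 0 in the saline lineage, which did not overlap but rest on the few Gdnf counts given above.

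The remaining ligands and receptors of these families were examined next. Of 15 other ligand genes, 9 could be tested and 0 passed the threshold. The 6 below the filter were Ntf5, Pspn, Gdf15, Lif, Osm and Il6. Nrtn, which encodes neurturin, the preferred ligand of Gfra2, lay at 3.69, 2.25 and 2.68 CPM in methylphenidate replicates 1 to 3 and at 2.28, 1.48 and 2.52 CPM in saline replicates 1 to 3 (log2 fold change 0.45, SE 0.31, adjusted p = 0.797 in edgeR). Clcf1, which encodes a further ligand of the CNTF receptor, had a log2 lineage difference of -0.59 (SE 0.48). None of the 9 tested ligand genes had groups that did not overlap. Ptn, which encodes the heparin-binding growth factor pleiotrophin, was the most abundant ligand of this list per length, at 100.4 to 121 CPM per kilobase.

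Of 17 other receptor and co-receptor genes with a row, all 17 were tested and 0 passed, while 1 had groups that did not overlap, a share below the 13.5% of all genes tested. That gene was Sdc3, a heparan sulfate proteoglycan that can bind GDNF, at 242, 286 and 277 CPM in methylphenidate replicates 1 to 3 and 226, 224 and 219.9 CPM in saline replicates 1 to 3. Its log2 fold change was 0.27 (SE 0.07, adjusted p = 0.381 in edgeR). Rtn4r, a receptor for myelin inhibitors that pairs with Ngfr, had a log2 lineage difference of -0.22 (SE 0.10, adjusted p = 0.665 in edgeR). The CNTF receptor chains Cntfr, Lifr and Il6st had log2 lineage differences of 0.01 (SE 0.08), -0.18 (SE 0.12) and -0.06 (SE 0.06). Gfra4, the co-receptor for persephin, was well counted at 20.3 to 25.0 CPM per kilobase, while its ligand gene Pspn reached at most 0.698.

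**Figure D3:**
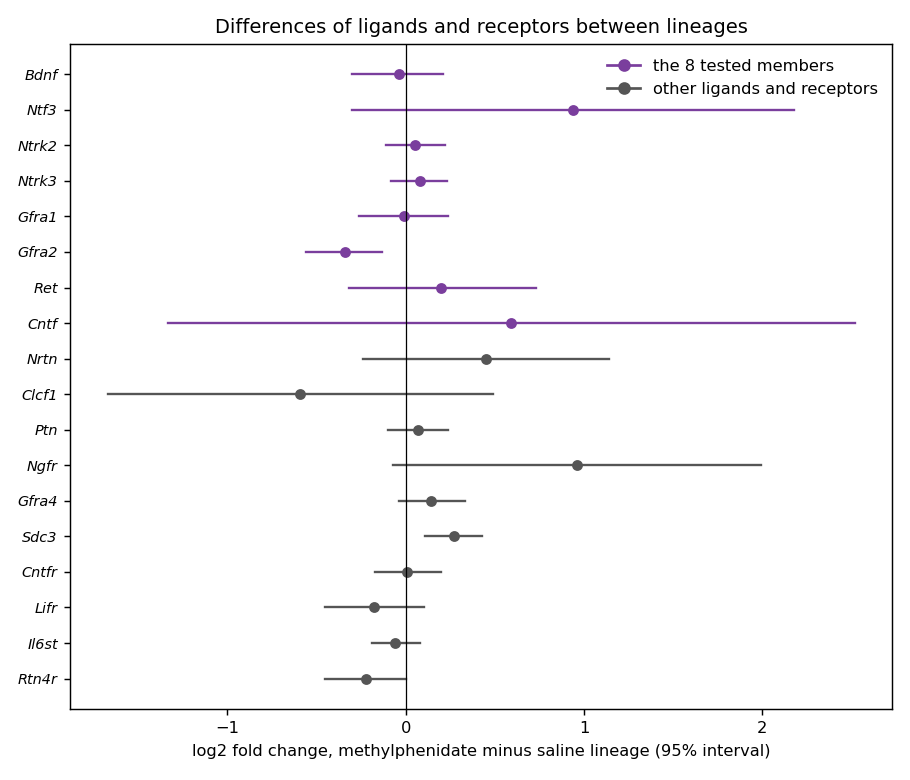
Log2 fold change (horizontal axis, methylphenidate minus saline) with its 95% interval for the 8 tested members and the other ligand and receptor genes named in the text. Gfra2 at -0.34 and Sdc3 at 0.27 have intervals that leave out 0 before adjustment, and Cntf has the widest interval, from -1.33 to 2.52.

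Ngfr, the receptor common to all neurotrophins and a gene of basal forebrain cholinergic neurons, lay at 2.03, 1.19 and 1.36 CPM in methylphenidate replicates 1 to 3 and at 1.29, 0.547 and 0.496 CPM in saline replicates 1 to 3 (log2 fold change 0.96, SE 0.46, adjusted p = 0.685 in edgeR). Chat, the enzyme gene that defines cholinergic neurons, lay at 1.82, 0.843 and 4.41 CPM in methylphenidate replicates 1 to 3 and at 1.14, 0.117 and 0.496 CPM in saline replicates 1 to 3. Of the 10 tested genes in the basal forebrain and hypothalamic list, 9 had log2 fold changes above 0 and none passed the threshold. In edgeR 5 of them had an unadjusted p under 0.05, against 7.51% of all genes tested. Groups did not overlap for 4, all higher in the methylphenidate lineage, against 13.5% of all genes tested. Chat was not among these 4. Lhx8, a defining transcription factor gene of these neurons, lay below the filter and was at 0 in methylphenidate replicate 2 and in saline replicates 2 and 3. The part of basal forebrain tissue in the level of Ngfr was not tested.

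**Figure D4:**
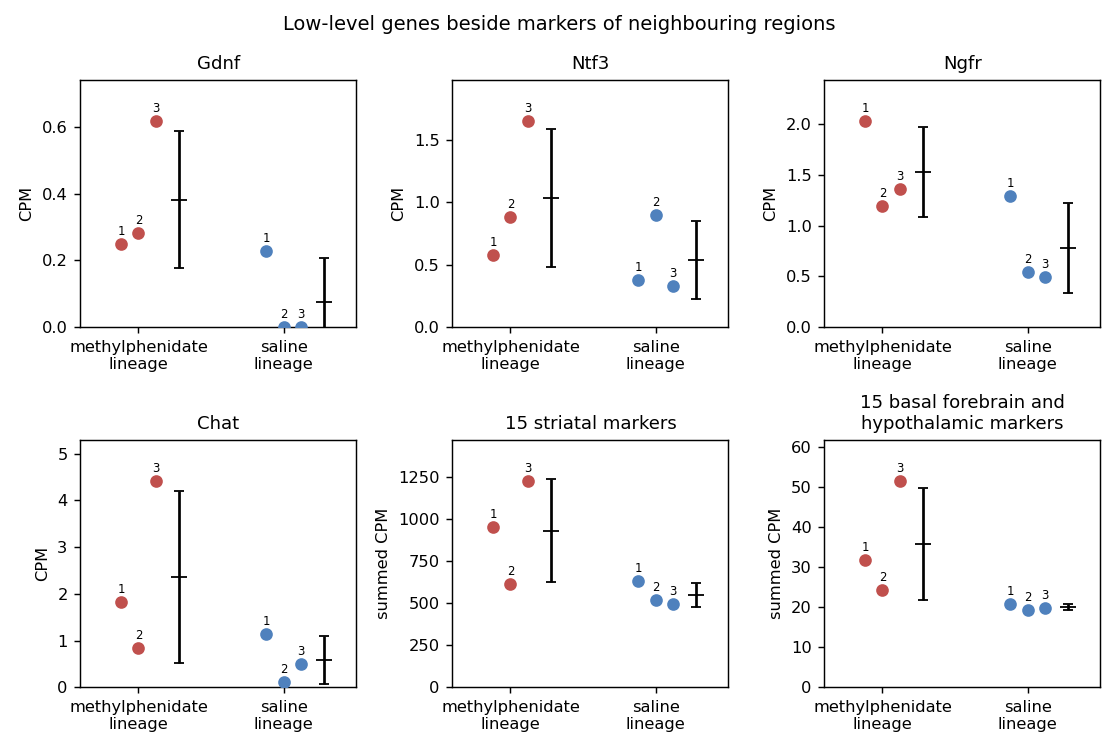
CPM of Gdnf, Ntf3, Ngfr and Chat, and summed CPM of 15 striatal and 15 basal forebrain and hypothalamic markers, in each library (vertical axes from 0, numbers are replicates, black bars mean and SD, n = 3). Methylphenidate replicate 3 is highest for Gdnf, Ntf3 and Chat and for both marker sums, which reach 1225 and 51.5 CPM there, while Ngfr is highest in methylphenidate replicate 1. Of the 51.5 CPM, 19.4 came from 1 gene.

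Genes that act before and after the receptors were followed in 6 further lists. Over these and the ligand and receptor lists together, 142 genes were tested besides the members, and 0 passed the threshold with edgeR or limma-voom. There were 21 genes, or 14.8%, at an unadjusted p under 0.05 in edgeR, where 7.51% of all genes tested were. There were also 21 genes with groups that did not overlap, where 13.5% of all genes tested had such groups. All these lists were chosen with earlier results of these data known, so their shares cannot serve as a test against all genes. DESeq2 called 3 genes of these lists, Camk2d, Ptpro and Bhlhe40, where it called 0.824% of the genes it tested.

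Of 11 tested genes for the processing of pro-neurotrophins, 0 passed and the median log2 fold change was 0.10. Pcsk2, a proprotein convertase of the regulated secretory pathway, had a log2 lineage difference of -0.20 (SE 0.09, adjusted p = 0.673 in edgeR). The value was 0.14 (SE 0.08) for Cpe, which trims the cleaved precursors and sorts pro-BDNF into secretory granules, and -0.12 (SE 0.08) for Sort1, the sortilin that traffics pro-BDNF.

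Of 39 tested adaptor and kinase genes downstream of Trk and Ret receptors, 0 passed and the median log2 fold change was 0.04. The groups did not overlap for 10, 5 of them higher and 5 lower, against 13.5% of all genes tested. Mapk3, a kinase of the Ras pathway, lay at 108, 127 and 143 CPM in methylphenidate replicates 1 to 3 and at 109, 92.0 and 96.1 CPM in saline replicates 1 to 3 (log2 fold change 0.35, SE 0.11, adjusted p = 0.494 in edgeR). Mapk7 and Shc4, a later kinase and a Trk adaptor, had log2 lineage differences of 0.28 (SE 0.11) and 0.40 (SE 0.16) and did not pass (adjusted p of 0.606 and 0.627 in edgeR). Exons of Shc4 overlap those of Eid1 on the other strand, which had 4566 to 6139 counts per library, and exons of Mapk7 overlap Mfap4. Whether the counting used strand is not stated, and without it reads from both genes of a pair are mixed. The same limit holds for Sdc3, Pcsk2, Sort1, Spry1, Dusp5, Bhlhe40, Jak1 and Stat3, whose exons overlap genes on the other strand.

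Of 20 tested genes for feedback inhibitors and phosphatases that limit receptor tyrosine kinase signalling, 0 passed with edgeR. Of these, 9 had an unadjusted p under 0.05 in edgeR, against 7.51% of all genes tested, in a list chosen with earlier results known. The groups did not overlap for 7, against 13.5% of all genes tested, with 3 higher and 4 lower, and the median was -0.04. Ptpro, a receptor phosphatase reported to act on Trk receptors, lay at 34.0, 33.3 and 41.1 CPM in methylphenidate replicates 1 to 3 and at 28.3, 15.7 and 20.5 CPM in saline replicates 1 to 3. Its log2 fold change was 0.75 (SE 0.19, adjusted p = 0.316 in edgeR), and DESeq2 gave an adjusted p of 0.00604. Ptprf, another receptor phosphatase, and Spry1, a Sprouty inhibitor that limits Ret signalling in the developing mouse kidney, had log2 lineage differences of 0.29 (SE 0.08) and 0.56 (SE 0.15) and did not pass (adjusted p of 0.389 and 0.397 in edgeR). The genes lower without overlap were Spry2, Spred1, Dusp4 and Dusp5, named after their values were seen, with log2 fold changes of -0.24 (SE 0.07), -0.26 (SE 0.08), -0.51 (SE 0.25) and -0.49 (SE 0.15).

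Of 19 tested regulators of Bdnf transcription, 0 passed with edgeR, 2 had groups that did not overlap, near the 13.5% of all genes tested, and the median was -0.01. Camk2d, a calcium- and calmodulin-dependent kinase, lay at 100.4, 138 and 129 CPM in methylphenidate replicates 1 to 3 and at 81.4, 90.3 and 81.5 CPM in saline replicates 1 to 3 (log2 fold change 0.54, SE 0.11, adjusted p = 0.220 in edgeR). Camk2d passed with DESeq2 (adjusted p = 0.000753) and with edgeR without methylphenidate replicate 1 (log2 fold change 0.66, SE 0.08, adjusted p = 0.0224). Bhlhe40, a repressor of Bdnf transcription, lay at 68.8, 118 and 92.9 CPM in methylphenidate replicates 1 to 3 and at 138, 123 and 143 CPM in saline replicates 1 to 3. Its log2 fold change was -0.53 (SE 0.16, adjusted p = 0.497 in edgeR, DESeq2 adjusted p = 0.0261). Mef2c, an activity-dependent transcription factor gene, had a log2 lineage difference of -0.25 (SE 0.10, adjusted p = 0.623 in edgeR). For Creb1, which encodes the cAMP-response element binding protein, it was -0.11 (SE 0.09, adjusted p = 0.823 in edgeR).

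Of 20 activity- and BDNF-induced genes, which include Bdnf, 0 passed, 14 had log2 fold changes below 0 and 6 above, and the median was -0.17 against 0.00 over all genes tested. With 1 library left out the median ran from -0.27 without saline replicate 2 to -0.06 without methylphenidate replicate 3 or saline replicate 3, and it was 0.10 without methylphenidate replicates 1 and 3. Egr1, an immediate early gene, lay at 207, 321 and 251 CPM in methylphenidate replicates 1 to 3 and at 429, 270.0 and 456 CPM in saline replicates 1 to 3 (log2 fold change -0.57, SE 0.20, adjusted p = 0.569 in edgeR). Homer1, a postsynaptic scaffold gene with an activity-induced form, had a log2 lineage difference of -0.43 (SE 0.22), against 0.16 (SE 0.09) for Vgf, a secreted peptide precursor gene induced by neurotrophins. No gene of this list had groups that did not overlap.

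Of 10 tested JAK-STAT genes downstream of the CNTF receptor, 0 passed, none had groups that did not overlap, and the median was -0.01. Gfap, a STAT3-responsive filament gene of astrocytes, had a log2 lineage difference of 0.18 (SE 0.09, adjusted p = 0.722 in edgeR). The value was -0.11 (SE 0.06) for the kinase gene Jak1 and 0.10 (SE 0.08) for Stat3.

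**Figure D5:**
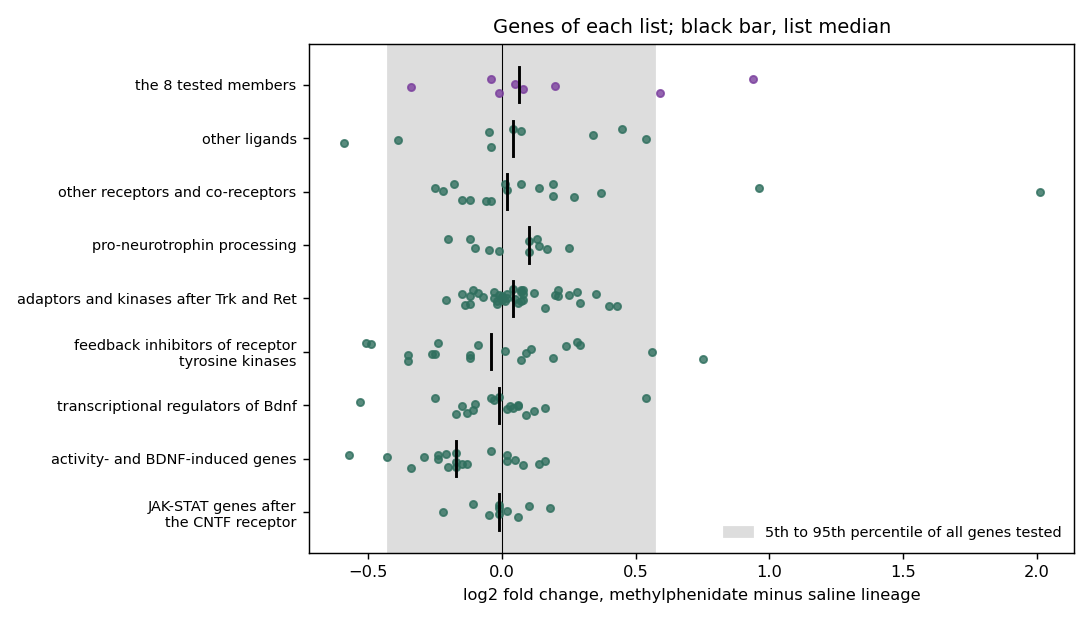
Log2 fold change (horizontal axis, methylphenidate minus saline) of each tested gene in the members and the 8 other lists, with black bars at the list medians and the grey band at the 5th to 95th percentile of all genes tested. Medians lie between -0.17 for activity- and BDNF-induced genes and 0.10 for pro-neurotrophin processing.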

How the data were processed

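RNA-seq of cerebral cortex gave 3 libraries in the methylphenidate lineage and 3 in the saline lineage, made from poly(A) RNA with a directional kit, per the labels' protocols. Per the submitters' processing notes, bcl2fastq 2.19, fastp 0.23.4, HISAT2 2.2.1, StringTie 2.2.1 and build GRCm39 were used, without roles or order. No source used here gives the annotation release or the strand setting. The authors deposited raw counts, as whole numbers, for each Ensembl gene. Of the rows, 985 had no symbol.

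Counts were tested in R 4.3.3 with edgeR 4.0.16 (filterByExpr, TMM scaling, quasi-likelihood test, lineage alone in the model). The test is two-sided, with Benjamini-Hochberg adjustment over all 18327 genes tested, with a threshold of 0.05. Standard errors are the fold change over the square root of the F statistic, and 95% intervals use the degrees of freedom of that test. CPM uses TMM-scaled library sizes. The analysis was tested on simulated data. Alternatives covered scaling (RLE, upper quartile, total count), filtering (none, or at least 10 counts in 3 libraries with mean CPM of 1 or more), a block for replicate number, DESeq2 1.42.0, limma-voom (limma 3.58.1), library sizes without mitochondrially encoded genes, and each library left out. Leaving out methylphenidate replicates 1 and 3 together, and the longest transcript as length, were added after seeing the data.

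Exon lengths and overlaps came from GENCODE M21 (GRCm38), another build than that of the counts. Lengths were the union of annotated exons. The members and lists were chosen with earlier results of these data known. Besides the members, the 3 genes of smallest p in each list were named, except some genes that are not reported here. Chat, Lhx8, Ngfr, Gfra4, Pspn, Ptn, Cntfr, Lifr, Il6st, Creb1, Spry2, Spred1, Dusp4 and Dusp5 were named beyond that rule, after their values were seen. The nearest patterns were sought among tested genes with a mean of at least 5 CPM. Pairs of libraries within a lineage had chi-square values of 13 to 19.9 per degree of freedom, so none was a duplicate.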

Additional observations from a re-analysis of the deposited data

How the results depend on the processing

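No member that could be tested passed the threshold under any of the 16 alternatives. The stricter filter left out Ntf3 and Cntf. The count over all genes tested, 5 with the settings of the report, was 10 with total-count scaling, 3 without a filter, 2 with the replicate block, 151 with DESeq2, 2 to 26 with 1 library left out (26 without methylphenidate replicate 1) and 16 without methylphenidate replicates 1 and 3. The genes of the pathway lists past the threshold numbered 3 with DESeq2 and 0 to 1 with 1 library left out. Same-numbered libraries of the lineages deviated together with correlations of -0.0444, 0.0907 and -0.0237, where libraries of unlike number had -0.112 to 0.134. The numbers were not taken as pairs, though with 3 libraries per lineage this check cannot show whether same-numbered animals shared a litter or sire. No member was called with the replicate block. Members with small differences changed sign: Bdnf was 0.05 without methylphenidate replicate 3, Ntrk2 -0.01 without saline replicate 3, and Gfra1 0.08 without methylphenidate replicate 2 and 0.06 without saline replicate 1. Without methylphenidate replicates 1 and 3, Bdnf was 0.14, Ntrk2 -0.01, Ret -0.08 and Cntf -0.31. Over all fits with libraries left out, log2 fold changes ran from -0.14 to 0.14 for Bdnf, 0.44 to 1.52 for Ntf3, -0.01 to 0.10 for Ntrk2, -0.21 to 0.08 for Gfra1, -0.08 to 0.42 for Ret and -0.31 to 1.27 for Cntf, which was 0.92 with the replicate block and 1.55 with limma-voom. The difference in Bdnf counts for every 100 Ntrk2 counts, -0.272 with all libraries, ran from -0.621 to 0.427, and that in Ret counts for every 100 Gfra2 counts, 2.92 with all libraries, from 1.07 to 3.85, with 0.427 and 1.07 found without methylphenidate replicates 1 and 3. Over the same sets of libraries, the differences in Ntf3 for every 100 Ntrk3 counts ran from 0.0897 to 0.494, in Gfra1 for every 100 Gfra2 counts from 3.10 to 16.8, and in Gdnf for every 100 Gfra1 counts from 0.691 to 1.22. Without methylphenidate replicates 1 and 3 the single methylphenidate library is assumed to vary like the saline group. The cause of these shifts was not tested. Depth limited Gdnf, Ntf3 and Cntf, which had at most 40 counts in any library.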
